A study of Mus musculus with 54 samples.

Results

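Loxl4, Mme, Spink1, Tff3, Slc34a2 and Smim22 are 6 of 24346 gene symbols measured in mouse liver, and their levels stood far from WT where Bmal1 was missing. They were picked from the expression table for a large level change in both KO and RE livers against WT, so those 2 differences are given as values with no test. Loxl4, Spink1 and Slc34a2 were high in KO and RE livers, while Mme, Tff3 and Smim22 were low there.

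Bulk liver RNA was sequenced from 3 genotypes of mice at 6 times of day, ZT0, ZT4, ZT8, ZT12, ZT16 and ZT20 (hours after lights on). In KO mice the Bmal1 gene carries a floxed STOP sequence. In RE mice the same STOP allele is combined with Syt10-Cre, which restores Bmal1 in the brain's clock, the suprachiasmatic nucleus, so the liver is by design still without it. WT mice express Bmal1 in all tissues. Each of the 18 groups held 3 livers. The labels state no strain, sex, age, litter or cohort, so p-values measure the spread between these livers. KO and RE livers are compared with the same WT livers.

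BMAL1, the product of the gene listed as Arntl, pairs with CLOCK or NPAS2 and binds E-box sequences to start transcription of the Per, Cry, Rev-erb and many metabolic genes. Because PER and CRY proteins then inhibit the pair, transcription runs in a daily cycle. Hepatocytes have such a clock of their own, and they also receive daily feeding, temperature and hormone signals that the central clock sets. A transcript can therefore differ between these genotypes in its mean level over the day, in its daily pattern, or in both.

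The 6 genes encode unrelated proteins. LOXL4 is a secreted lysyl oxidase that oxidises lysines in collagen and elastin, the first step of matrix cross-linking. MME, or neprilysin, is a membrane endopeptidase that cuts small signalling peptides outside the cell. SPINK1 is a secreted inhibitor of trypsin-like serine proteases, best known from the pancreas. TFF3 is a trefoil peptide that goblet cells secrete with mucus. SLC34A2 is the sodium-phosphate cotransporter NaPi-IIb of lung, gut and other epithelia. SMIM22 is a small integral membrane protein.

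All 6 are protein-coding and lie on different chromosomes of mm10 (positions from RefSeq, GRCm38.p6). Loxl4 is at chr19:42592279-42612806 and Mme at chr3:63295211-63383713. Tff3 is at chr17:31125306-31129611, Slc34a2 at chr5:53049353-53071664 and Smim22 at chr16:5007288-5008309. One long non-coding gene model overlaps Slc34a2, and whether reads were assigned by strand is not given, so reads of the 2 cannot be told apart.

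Promoter windows were available for Loxl4, Slc34a2, Mme and Smim22, and are shown because a clock factor that binds DNA is what the genotypes differ in. Each is the 250 bases before the most upstream RefSeq start (GRCm38.p6), written 5′ to 3′ on the gene's strand. Capitals mark the one match to a searched motif. The windows are chr19:42612807-42613056 on the minus strand for Loxl4, chr5:53049103-53049352 on the plus strand for Slc34a2, chr3:63294961-63295210 on the plus strand for Mme and chr16:5007038-5007287 on the plus strand for Smim22.
Loxl4: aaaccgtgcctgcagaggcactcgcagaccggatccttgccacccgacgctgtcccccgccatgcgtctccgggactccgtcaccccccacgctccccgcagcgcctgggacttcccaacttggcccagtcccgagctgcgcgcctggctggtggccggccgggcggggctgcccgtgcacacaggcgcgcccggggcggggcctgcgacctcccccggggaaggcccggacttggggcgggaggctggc
Slc34a2: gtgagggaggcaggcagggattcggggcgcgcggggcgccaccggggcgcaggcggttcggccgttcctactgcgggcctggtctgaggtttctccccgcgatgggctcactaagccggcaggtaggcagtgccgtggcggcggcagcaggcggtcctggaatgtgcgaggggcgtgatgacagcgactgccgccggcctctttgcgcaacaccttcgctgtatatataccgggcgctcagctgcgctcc
Mme: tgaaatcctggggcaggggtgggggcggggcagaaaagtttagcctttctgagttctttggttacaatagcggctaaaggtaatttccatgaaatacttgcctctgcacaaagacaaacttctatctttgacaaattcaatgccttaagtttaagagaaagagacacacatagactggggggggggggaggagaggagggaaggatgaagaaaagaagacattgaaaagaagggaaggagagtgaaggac
Smim22: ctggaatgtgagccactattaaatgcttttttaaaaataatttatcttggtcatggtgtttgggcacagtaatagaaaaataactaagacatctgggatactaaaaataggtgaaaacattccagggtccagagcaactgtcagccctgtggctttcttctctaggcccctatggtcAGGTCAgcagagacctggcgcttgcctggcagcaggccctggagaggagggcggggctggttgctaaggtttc

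The windows of the 2 genes that were high without Bmal1 are rich in G and C, 76% for Loxl4 and 69.6% for Slc34a2, above 96.9% and 90.6% of 27025 RefSeq promoter windows of that length. Those of the 2 genes that were low are nearer the middle, 45.6% for Mme and 47.2% for Smim22, where the median of all windows is 52%. The E-box CACGTG occurs in 6.04% of all windows on either strand, its variant CACGTT in 3.93%, and neither is in any of the 4. Mme has 3 start windows and Smim22 has 2, and only the most upstream of each was searched. The half-site AGGTCA, to which REV-ERB and ROR receptors and other nuclear receptors bind, occurs in 13.8% of all windows and, among the 4, in that of Smim22, at position -73 from the start. A match describes letters in a short window and shows no binding.

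Expression is in FPKM, fragments scaled to transcript length and to mapped fragments, and total FPKM per liver was 572995 to 751399. Differences are on the log2(FPKM + 1) scale, which understates changes of low genes. Livers are named by genotype, time and column number (0, 1 or 2). Arntl averaged 12.0 ± 1.26 FPKM in KO livers, 11.4 ± 2.12 FPKM in RE livers and 4.78 ± 4.02 FPKM in WT livers (SD, n = 18 each). That value covers the whole gene and does not check the STOP allele. Hepatocyte markers dominated every library, with summed levels of 23460.3 to 45148 FPKM in KO, 26957 to 50336 FPKM in RE and 25306 to 34608 FPKM in WT, although Alb itself is listed at 0 in all WT and some other libraries, 21 in all.

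One library stands apart. In WT ZT0 liver 0, 19 of 20 gut epithelium markers had their highest level of all 54 libraries, among them the goblet cell product Zg16 at 58.9 FPKM and the antimicrobial lectin Reg3b at 70.6 FPKM. Without Fabp2, which liver also expresses, the gut markers summed to at most 1.27 FPKM in KO livers, at most 12.6 FPKM in RE livers, 282 FPKM in WT ZT0 liver 0 and at most 23.4 FPKM in the other 17 WT livers. The next highest WT sums were in the same group, 23.4 FPKM in WT ZT0 liver 1 and 13.3 FPKM in WT ZT0 liver 2. WT livers at other times reached at most 0.644 FPKM, and the RE value of 12.6 FPKM is that of RE ZT16 liver 1. Leaving out WT ZT0 liver 0 therefore does not remove all gut transcripts from the WT ZT0 group. The epithelial markers Krt19, Cldn7 and Epcam were also highest in WT ZT0 liver 0. Its values of the 6 genes are given below wherever they matter.

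Loxl4, one of the 3 genes that were high without Bmal1, separated from WT in every liver. Its lowest, median and highest levels were 9.64, 13.8 and 17.7 FPKM in KO livers, 7.52, 14.5 and 22.5 FPKM in RE livers, and 0.0809, 0.456 and 3.82 FPKM in WT livers. No KO or RE liver overlapped a WT liver. Means were 13.3 ± 2.45 FPKM in KO, 14.8 ± 4.47 FPKM in RE and 0.933 ± 1.04 FPKM in WT (SD, n = 18 each), 14.3 and 15.9 times the WT mean. The log2 difference from WT was 3.02 in KO and 3.13 in RE (SE 0.08 each), and with a pseudocount of 0.1 FPKM it was 4.29 in KO and 4.40 in RE. The highest WT value, 3.82 FPKM, is that of WT ZT0 liver 0, and the other 17 WT livers reached at most 2.71 FPKM. In bulk liver, fewer cells of a type and less RNA per cell cannot be told apart, here and for the other genes.

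Mme, one of the 3 that were low, separated from WT as well. Its lowest, median and highest levels were 0.0831, 0.288 and 0.610 FPKM in KO livers, 0.0276, 0.223 and 0.686 FPKM in RE livers, and 4.41, 7.50 and 14.2 FPKM in WT livers. Again the KO and RE livers did not overlap the WT livers at any time. Means were 0.278 ± 0.128 FPKM in KO, 0.237 ± 0.155 FPKM in RE and 8.19 ± 3.24 FPKM in WT (SD, n = 18 each). WT livers thus held 29.4 times the KO mean and 34.6 times the RE mean. The log2 difference from WT was -2.77 in KO and -2.82 in RE (SE 0.06 each), and with a pseudocount of 0.1 FPKM it was -4.43 in KO and -4.66 in RE. WT ZT0 liver 0, at 6.62 FPKM, lay inside the range of the other WT livers.

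Spink1 (chr18:43728069-43737237) was high and scattered in livers without Bmal1. It ran over 8.22, 22.0 and 87.4 FPKM (lowest, median, highest) in KO livers, 6.80, 18.9 and 37.4 FPKM in RE livers, and 0.247, 1.60 and 36.6 FPKM in WT livers. The highest KO value, in ZT20 liver 1, is far above the other 2 livers of its group at 24.3 and 27.3 FPKM. The highest WT value is WT ZT0 liver 0, the library with the most gut transcripts, and the other 2 livers of that group had 2.81 and 2.16 FPKM. Means were 26.3 ± 17.9 FPKM in KO, 21.4 ± 9.87 FPKM in RE and 3.43 ± 8.33 FPKM in WT (SD, n = 18 each), a ratio to WT of 7.67 in KO and 6.25 in RE. Without WT ZT0 liver 0 the WT mean was 1.48 ± 1.06 FPKM (SD, n = 17), the ratios were 17.8 in KO and 14.5 in RE, and no KO or RE liver overlapped a WT liver. The log2 difference from WT was 3.15 in KO and 2.92 in RE (SE 0.27 each), and 3.34 in KO and 3.11 in RE without that liver.

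Tff3 was the most abundant of the 6 in WT. Its lowest, median and highest levels were 0.804, 5.11 and 28.4 FPKM in KO livers, 1.83, 6.12 and 31.3 FPKM in RE livers, and 16.4, 66.1 and 218 FPKM in WT livers. The ranges overlapped: WT ZT0 liver 2, at 16.4 FPKM, lay below KO ZT0 liver 2 at 18.1 FPKM and RE ZT0 liver 2 at 31.3 FPKM. At each of the other 5 times, every KO and RE liver was below every WT liver. Means were 7.03 ± 6.62 FPKM in KO, 7.97 ± 6.65 FPKM in RE and 90.7 ± 63.4 FPKM in WT (SD, n = 18 each). The log2 difference from WT was -3.44 in KO and -3.22 in RE (SE 0.32 each), and the WT mean was 12.9 and 11.4 times the KO and RE means.

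Since Tff3 is a gut gene, its level was set against the gut markers in each liver. WT ZT0 liver 0 held 142 FPKM of Tff3, and WT ZT0 liver 1 held 139 FPKM. The highest Tff3 level, 218 FPKM, was in WT ZT4 liver 0. Over the 17 other WT livers Tff3 had a median of 63.9 FPKM, while the 19 gut markers without Fabp2 summed to a median of 0.150 FPKM. In KO and RE livers the same sum had medians of 0.184 and 0.357 FPKM. Without WT ZT0 liver 0 the WT mean of Tff3 was 87.7 ± 64.0 FPKM (SD, n = 17), 12.5 times the KO mean and 11.0 times the RE mean.

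**Figure D1:**
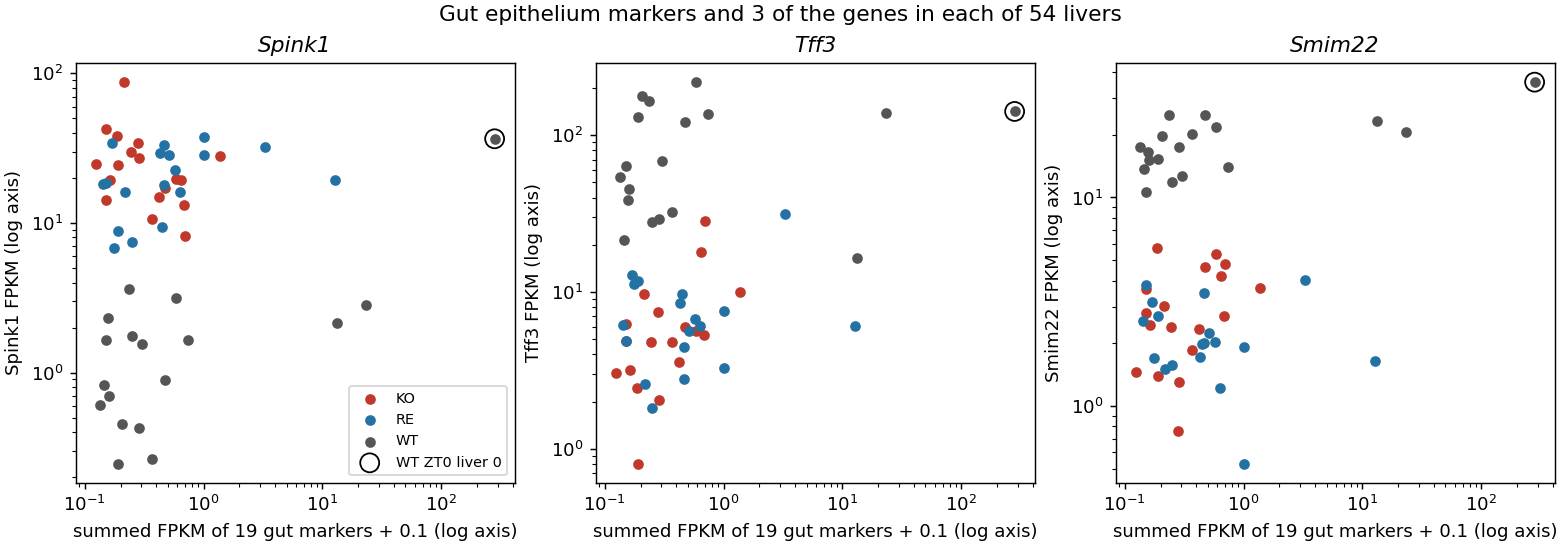
Level of Spink1, Tff3 and Smim22 (FPKM, log axis) in each of the 54 livers against the summed FPKM of 19 gut epithelium markers plus 0.1 (log axis), by genotype, with WT ZT0 liver 0 circled. The circled liver lies alone at the right at 282 FPKM of gut markers, where Spink1 at 36.6 FPKM and Smim22 at 35.7 FPKM are the highest of the WT livers and Tff3 at 142 FPKM is within the WT range.

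The plot of gut markers against the 3 genes shows the split between genotypes among livers at the left, where gut transcripts are near 0. Spink1 is low and Tff3 and Smim22 are high in those WT livers.

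Slc34a2 had the widest ratio between genotypes. It ran over 2.76, 9.89 and 23.3 FPKM (lowest, median, highest) in KO livers, 2.97, 11.4 and 18.6 FPKM in RE livers, and 0.0318, 0.257 and 0.690 FPKM in WT livers. No KO or RE liver overlapped a WT liver, and WT ZT0 liver 0 was unremarkable at 0.529 FPKM. Means were 11.7 ± 6.77 FPKM in KO, 11.5 ± 4.02 FPKM in RE and 0.285 ± 0.223 FPKM in WT (SD, n = 18 each), 41.1 and 40.4 times the WT mean. The log2 difference from WT was 3.11 in KO and 3.22 in RE (SE 0.18 each). With a pseudocount of 0.1 FPKM these differences were 4.92 in KO and 5.06 in RE.

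Smim22 had the smallest shift of the 6. Its lowest, median and highest levels were 0.764, 2.76 and 5.75 FPKM in KO livers, 0.531, 2.00 and 4.03 FPKM in RE livers, and 10.6, 17.5 and 35.7 FPKM in WT livers. No KO or RE liver overlapped a WT liver. Means were 3.03 ± 1.47 FPKM in KO, 2.21 ± 0.922 FPKM in RE and 18.6 ± 6.08 FPKM in WT (SD, n = 18 each), so the WT mean was 6.14 times the KO mean and 8.42 times the RE mean. The log2 difference from WT was -2.32 in KO and -2.61 in RE (SE 0.15 each). The highest WT value is again WT ZT0 liver 0, and without it the WT mean was 17.6 ± 4.48 FPKM (SD, n = 17).

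**Figure D2:**
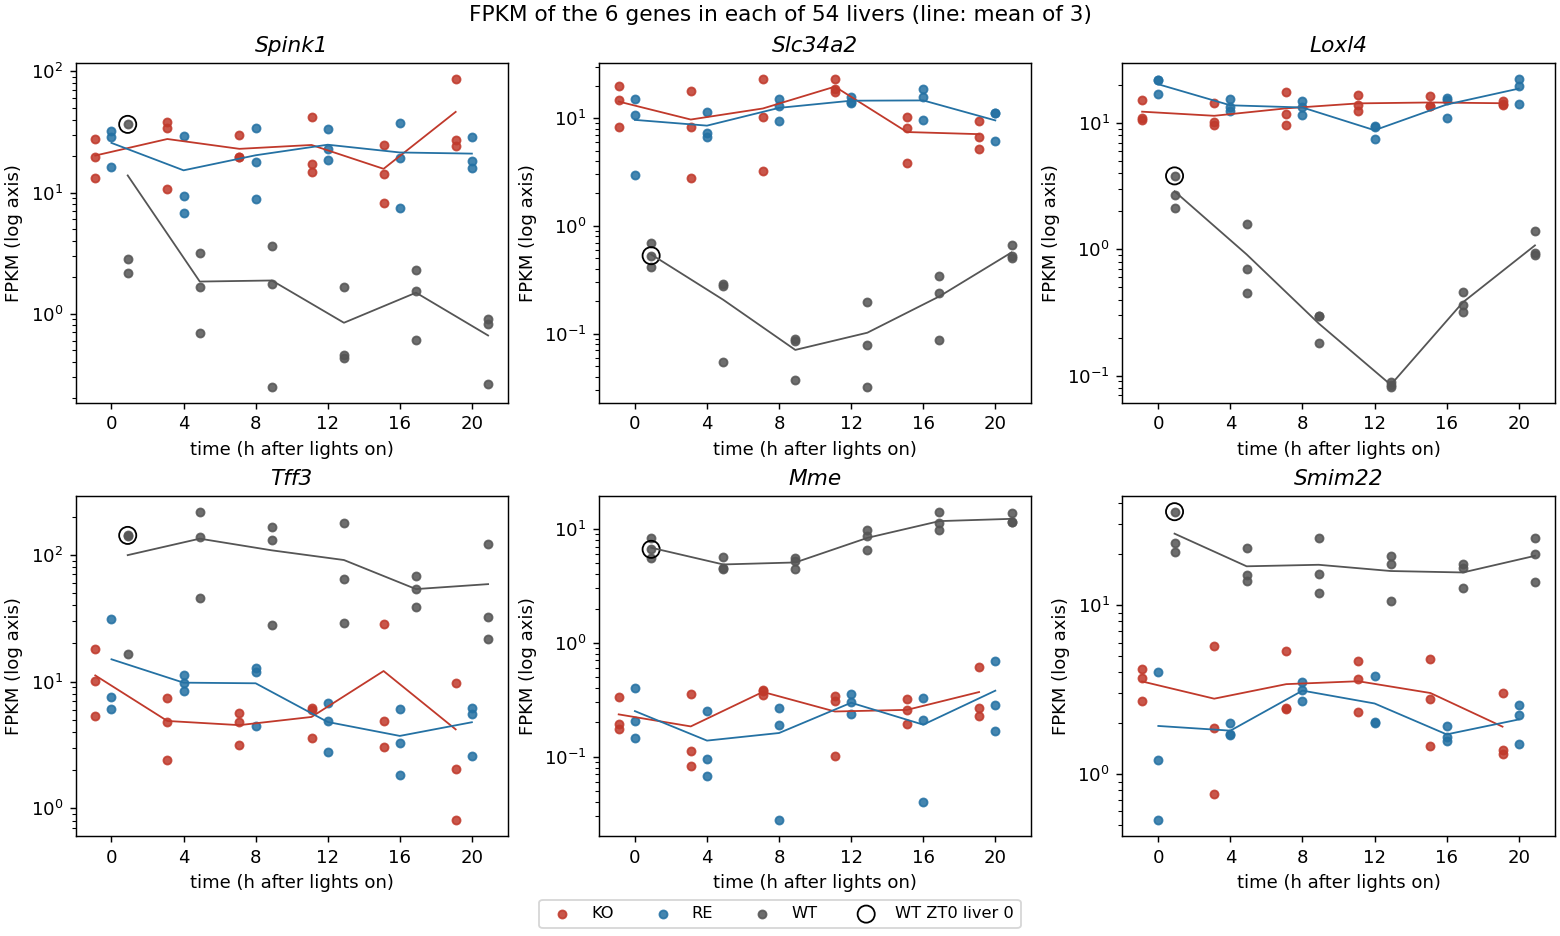
FPKM (log axis) of each of the 6 genes in all 54 livers by time (h after lights on), with points for single livers, lines for the mean of 3 and WT ZT0 liver 0 circled. KO and RE points lie together, above the WT points for Spink1, Slc34a2 and Loxl4 and below them for Tff3, Mme and Smim22, apart from the circled Spink1 value and the Tff3 values at ZT0.

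As the plot of all livers shows, 4 of the 6 genes had no overlap between 18 KO and 18 WT livers, and the same 4 had none between RE and WT livers. Among 10932 genes tested, 1.61% had no overlap between KO and WT livers and 1.34% had none between RE and WT livers. At each of the 6 times taken alone, the same 4 genes had no overlap, where 3.18% of genes tested had none in KO and 3% none in RE. Levels in KO were called different from WT by limma (adjusted p under 0.05) for 42.3% of the genes tested, 22.1% higher and 20.2% lower. In RE they were called for 45.9%, 24.2% higher and 21.7% lower. The 6 genes entered on that contrast, so nothing is read from these shares. Ranked by the smaller of their 2 absolute differences from WT, they stand at places 7 (Tff3), 8 (Slc34a2), 9 (Loxl4), 10 (Spink1), 14 (Mme) and 30 (Smim22). Next to Spink1 at 2.92 on that measure comes Cml5, also at 2.92, and next to Smim22 at 2.32 come Rgs16 at 2.36 and Nr1d1 at 2.31.

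RE livers were compared with KO livers to ask whether restoring Bmal1 in the central clock moved the 6 levels. None of the 6 differed by limma at an adjusted p under 0.05, and none at an unadjusted p under 0.05, where 0.192% of genes tested were called and 1451 had an unadjusted p under 0.05. Picking genes that are shifted in both genotypes favours a small difference between them. The log2 difference of RE from KO was 0.11 for Loxl4 (95% interval -0.05 to 0.26, adjusted p 0.574) and -0.05 for Mme (-0.17 to 0.07, adjusted p 0.756). For Spink1 it was -0.23 (-0.78 to 0.32, adjusted p 0.763), and for Tff3 0.23 (-0.42 to 0.87, adjusted p 0.814). For Slc34a2 it was 0.11 (-0.26 to 0.47, adjusted p 0.850). Smim22 came nearest to a difference, lower in RE by -0.29 (-0.59 to 0.02, adjusted p 0.407). The intervals leave room for a difference of up to 0.87 for Tff3 and 0.78 for Spink1. That of Mme is narrow on this scale, which compresses differences at its means of 0.237 FPKM in RE and 0.278 FPKM in KO. On log2(FPKM + 0.1) the difference of Mme was -0.23 (limma, adjusted p 0.562), so its interval does not bound the fold change.

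Loxl4 cycled in RE and WT livers, and its daily pattern in KO differed from that in WT. In WT its livers had 3.82, 2.71 and 2.13 FPKM at ZT0, 1.58, 0.702 and 0.452 FPKM at ZT4, and 0.297, 0.298 and 0.183 FPKM at ZT8. They had 0.0809, 0.0845 and 0.0887 FPKM at ZT12, 0.360, 0.461 and 0.322 FPKM at ZT16, and 0.937, 0.898 and 1.39 FPKM at ZT20. The WT mean at ZT0, 2.88 FPKM, was thus 34.0 times that at ZT12. RE livers had 22.0, 22.0 and 16.9 FPKM at ZT0, against 9.48, 9.33 and 7.52 FPKM at ZT12, with no overlap between the 2 times. KO group means stayed between 11.4 FPKM at ZT4 and 14.6 FPKM at ZT16.

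The 24 h amplitude of Loxl4, from mean to peak in log2(FPKM + 1), was 0.18 in KO (limma, adjusted p 0.50), 0.47 in RE with a peak at ZT22.9 (adjusted p 6.04e-05) and 0.80 in WT with a peak at ZT23.6 (adjusted p 8.94e-10), with an SE of 0.08 each. The pattern in KO differed from WT by 0.90 (length of the difference between the 2 rhythms, log2, SE 0.11, adjusted p 8.43e-07), and by 0.84 without WT ZT0 liver 0. RE differed from KO by 0.55 (adjusted p 0.0166), a call that was lost when RE and KO livers were fitted alone (adjusted p 0.0761). The difference of RE from WT was 0.35 and was not called (adjusted p 0.0643). On log2(FPKM + 0.1), which compresses the low WT values less, it was 1.29 (adjusted p 1.86e-07). Leaving out single livers also moved it past the threshold: adjusted p was 0.0375 without WT ZT0 liver 2, 0.0372 without WT ZT4 liver 2, 0.0424 without KO ZT8 liver 1 and 0.0377 without RE ZT16 liver 2.

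Mme cycled in WT, and no rhythm was called where its level was low. WT livers had 4.55, 4.41 and 5.66 FPKM at ZT4, 14.2, 11.2 and 9.77 FPKM at ZT16, and 11.5, 11.6 and 13.7 FPKM at ZT20. The highest WT group mean, 12.3 FPKM at ZT20, was 2.51 times the lowest, 4.88 FPKM at ZT4. The amplitude was 0.03 in KO (limma, adjusted p 0.960), 0.09 in RE (adjusted p 0.426) and 0.65 in WT with a peak at ZT17.5 (adjusted p 1.30e-10), with an SE of 0.06 each. The pattern differed from WT by 0.62 in KO (adjusted p 3.61e-06) and by 0.57 in RE (adjusted p 2.22e-05). Both calls ended on log2(FPKM + 0.1), with adjusted p 0.171 in KO and 0.380 in RE.

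No 24 h rhythm was called for the other 4 genes in any genotype. Over all 6 genes, 0 were called in KO, 1 in RE and 2 in WT, where 0.0366%, 46.8% and 34.8% of the genes tested were called. None of the 6 had an unadjusted p under 0.05 in KO, where 1301 genes did. Slc34a2 had amplitudes of 0.27 in KO, 0.44 in RE and 0.30 in WT, with adjusted p 0.742, 0.106 and 0.383. Its WT livers had 0.529, 0.412 and 0.690 FPKM at ZT0, 0.0856, 0.0895 and 0.0369 FPKM at ZT8 and 0.508, 0.525 and 0.667 FPKM at ZT20, and the ZT8 livers do not overlap those of ZT0 or ZT20. They do overlap the WT livers at ZT4, ZT12 and ZT16, whose lowest values were 0.0541, 0.0318 and 0.0870 FPKM. The WT rhythm of Slc34a2 was called on log2(FPKM + 0.1) (amplitude 1.07, adjusted p 0.000944) and with WT livers fitted alone (amplitude 0.30, adjusted p 0.000158). Its peaks were at ZT12.8 in RE and ZT21.8 in WT, and the pattern of RE differed from WT by 0.69 (adjusted p 0.138), and was called with RE and WT livers fitted alone (adjusted p 0.0247) and on log2(FPKM + 0.1) (1.46, adjusted p 0.00428). On that scale KO differed from WT too (1.35, adjusted p 0.0113), against 0.56 and an adjusted p of 0.312 with a pseudocount of 1. Leaving out RE ZT0 liver 1 brought the RE rhythm of Slc34a2 past the threshold (amplitude 0.58, adjusted p 0.0349).

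Spink1 had an amplitude of 0.19 in KO, 0.20 in RE and 0.67 in WT, and the adjusted p in WT was 0.128. That WT value rests on single livers of ZT0: it was 0.33 without WT ZT0 liver 0 (adjusted p 0.518) and 0.87 without WT ZT0 liver 2 (adjusted p 0.0433). Tff3 had an amplitude of 0.11 in KO, 0.77 in RE and 0.58 in WT, with an SE of 0.32 each. The RE amplitude of Tff3 was called with RE livers fitted alone (adjusted p 0.0369) and not otherwise (adjusted p 0.116). Smim22 had amplitudes of 0.17 in KO, 0.25 in RE and 0.28 in WT (adjusted p 0.847, 0.340 and 0.290).

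**Figure D3:**
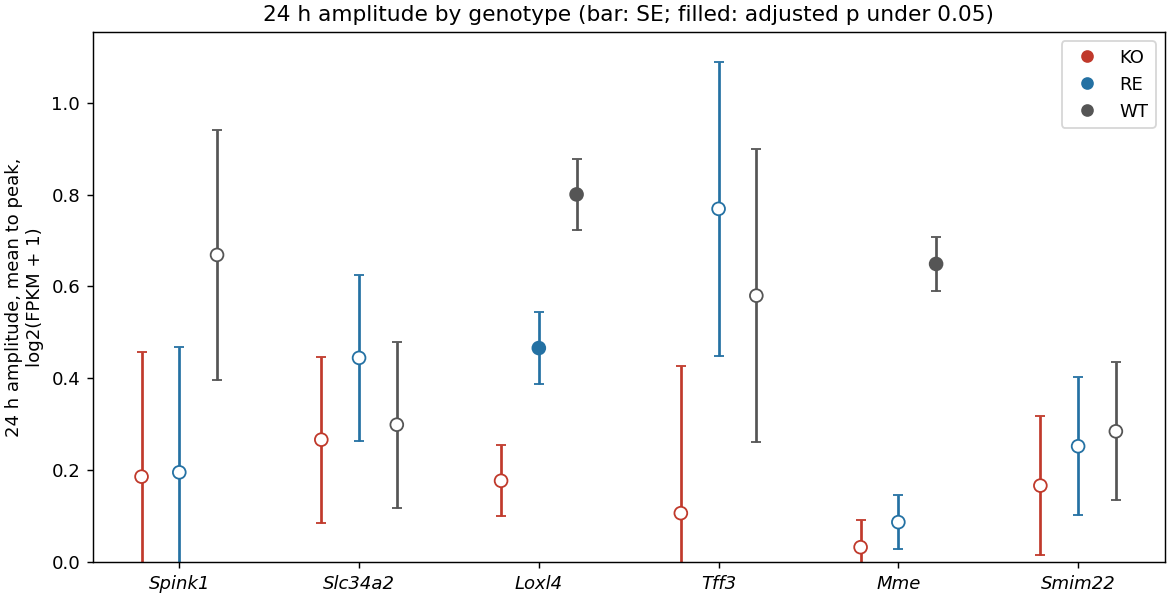
Amplitude of the 24 h rhythm (mean to peak, log2(FPKM + 1), bar: limma SE) of each gene in KO, RE and WT livers, filled where the adjusted p is under 0.05. Filled points are Loxl4 in RE at 0.47, Loxl4 in WT at 0.80 and Mme in WT at 0.65.

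The plot of amplitudes shows the wide errors for Spink1, Tff3 and Slc34a2. Counting pairs of genotypes, the patterns of 2 of the 6 genes differed between KO and WT, where 9.06% of the genes tested did. One of 6 differed between RE and WT (14.1% of the genes tested), and 1 of 6 between RE and KO (3.07%).

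The shifts were not equally constant over the day. The difference between KO and WT depended on time for Loxl4 and Mme, 2 of the 6 genes, where 5.79% of the genes tested did (limma, F test over the 6 times). For Loxl4 the log2 difference of KO from WT was 1.78 at ZT0 and 3.81 at ZT12, a range of 2.03 (adjusted p 9.92e-06), or 1.86 without WT ZT0 liver 0. For Mme it was -2.14 at ZT8 and -3.32 at ZT16, a range of 1.18 (adjusted p 7.61e-05), a call that ended on log2(FPKM + 0.1) (adjusted p 0.336). Neither shift changed sign at any time.

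Between RE and WT the difference depended on time for Mme, 1 of the 6 genes (7.59% of the genes tested). It was -2.37 at ZT4 and -3.41 at ZT16, a range of 1.04 (adjusted p 0.000433). This call too ended on log2(FPKM + 0.1), with an adjusted p of 0.602. For Loxl4 the difference of RE from WT ran from 2.47 at ZT0 to 3.50 at ZT8, a range of 1.03 that was not called (adjusted p 0.0687), and on log2(FPKM + 0.1) it was 2.78 (adjusted p 4.10e-06). It was also called without any one of KO ZT8 liver 1, RE ZT16 liver 2, RE ZT20 liver 1, WT ZT0 liver 2, WT ZT4 liver 0 and WT ZT4 liver 2 (adjusted p 0.0419 to 0.0492). Spink1, Tff3, Slc34a2 and Smim22 had ranges of 3.20, 1.76, 1.88 and 0.95 in KO and 2.09, 1.17, 1.25 and 1.28 in RE, none of them called. On log2(FPKM + 0.1) the ranges of Slc34a2 were called, 3.28 in KO (adjusted p 0.0455) and 2.60 in RE (adjusted p 0.0415). A range that misses the threshold does not show a constant shift. For Spink1 the smallest difference was at ZT0, 1.41 in KO and 1.74 in RE, the time of WT ZT0 liver 0, and the range in KO was 2.06 without that liver.

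**Figure D4:**
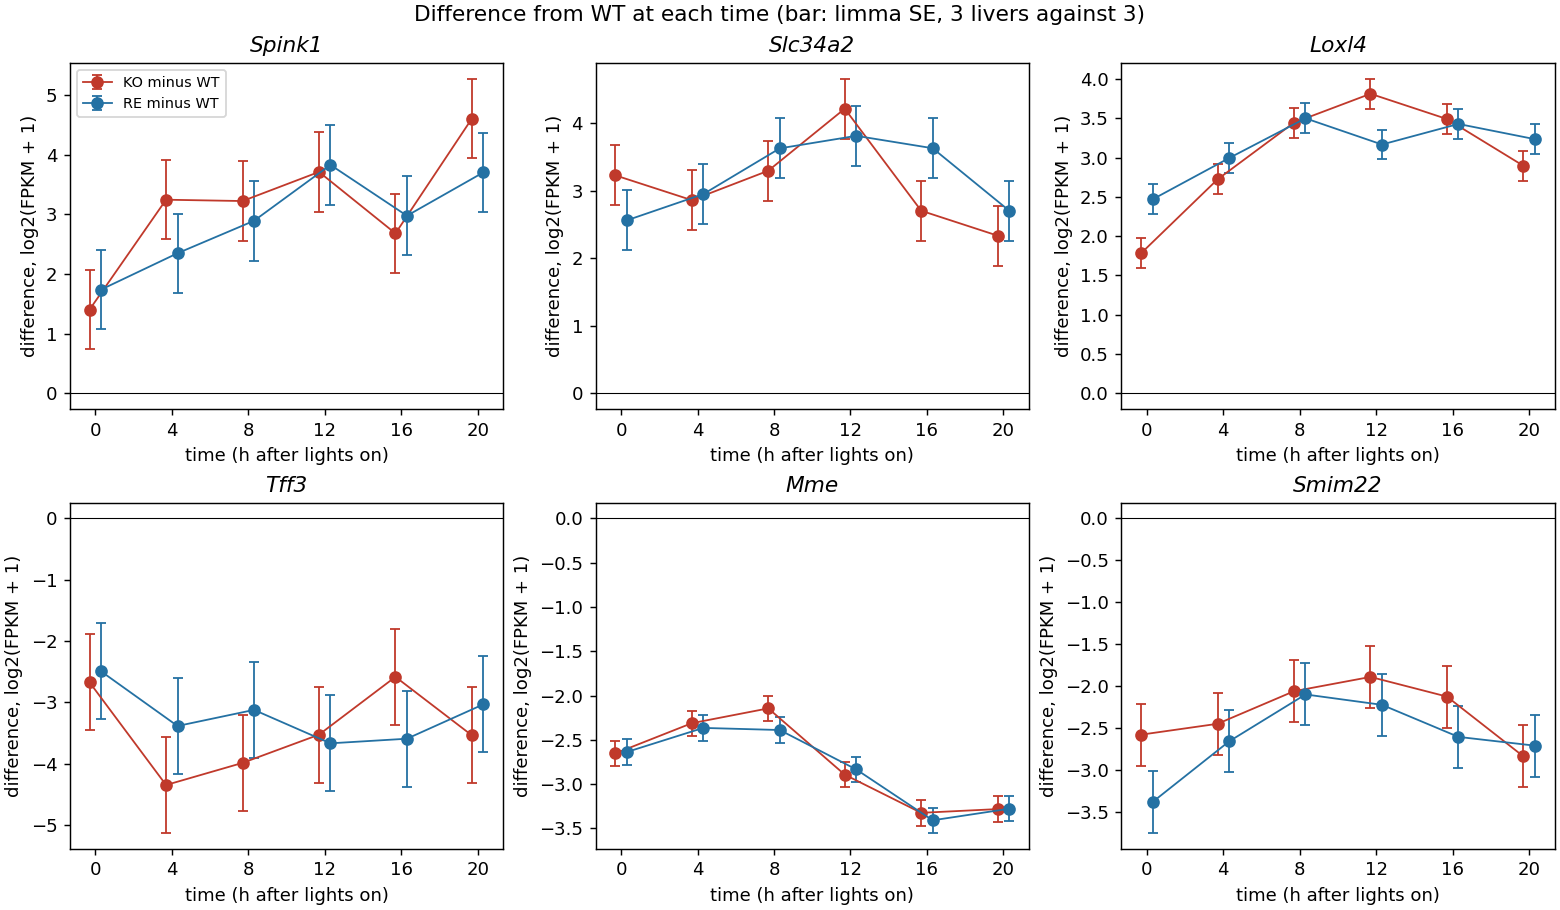
Difference of KO from WT and of RE from WT in log2(FPKM + 1) at each of the 6 times (h after lights on) for each gene, 3 livers against 3, with the limma SE as bar. All differences are above 0 for Spink1, Slc34a2 and Loxl4 and below 0 for Tff3, Mme and Smim22; the KO difference of Loxl4 is smallest at ZT0 (1.78) and largest at ZT12 (3.81).

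Livers of one group varied far more for some of the 6 genes than for others. The SD within a group (log2) of Tff3 was 0.95 in KO, 0.71 in RE and 1.27 in WT, and 99.7% of genes tested had a smaller SD than Tff3 in WT. The median gene had 0.17 in KO, 0.20 in RE and 0.13 in WT. Spink1 had 0.76 in KO, 0.79 in RE and 0.99 in WT, or 0.60 in WT without WT ZT0 liver 0. Smim22 had 0.58 in KO, 0.41 in RE and 0.40 in WT. Loxl4 was tighter than those, at 0.26 in KO, 0.23 in RE and 0.23 in WT, as was Mme, at 0.14 in KO, 0.17 in RE and 0.21 in WT. In WT, 87.6% of genes tested still had a smaller SD than Loxl4, and 83.3% a smaller SD than Mme. Mme averaged 0.278 FPKM in KO and 0.237 FPKM in RE, where log2(FPKM + 1) compresses the spread. Slc34a2 had 0.81 in KO and 0.55 in RE, against 0.12 in WT where it averaged 0.285 FPKM. Among the 54 deviations of single livers from their group means, the highest correlation between 2 of the 6 genes was that of Tff3 with Smim22 (Pearson r 0.46, Spearman rho 0.44), and the lowest that of Slc34a2 with Smim22 (r -0.38, rho -0.23). Values of one library share its depth and scaling, so these describe the libraries only.

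Genes related to each of the 6 in family or function were counted in the same tests. Of 25 lysyl oxidase, collagen and collagen-processing genes other than Loxl4, 19 were tested, and 7 rose and 1 fell in KO while 3 rose and 2 fell in RE. Of all genes tested, 22.1% rose and 20.2% fell in KO, and 24.2% rose and 21.7% fell in RE, so the share of the list called in either direction was near or below the 42.3% and 45.9% of all genes. The basement membrane collagens Col4a2 and Col4a1 rose by 0.73 and 0.69 in KO and by 0.66 and 0.57 in RE (SE 0.07 each), with limma adjusted p from 1.50e-10 to 3.78e-08. Bmp1, which cleaves procollagens and the lysyl oxidase precursor, rose by 0.24 in KO (adjusted p 6.12e-05) and by 0.37 in RE (adjusted p 4.31e-08). P4ha2, a prolyl hydroxylase of collagen, fell by 0.66 in both (adjusted p 7.73e-09 in KO and 7.16e-09 in RE). The median difference of the list was 0.07 in KO and 0.02 in RE, where the median of all genes tested was 0.00 and 0.01.

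Of 11 phosphate transport genes other than Slc34a2, 9 were tested, and 1 rose and 7 fell in KO while 1 rose and 6 fell in RE, where 20.2% and 21.7% of all genes tested fell. The sodium-phosphate cotransporter Slc20a2 rose by 0.25 in KO and 0.17 in RE (adjusted p 5.24e-06 and 0.000932). Alpl, tissue-nonspecific alkaline phosphatase, fell by 0.97 in KO and 0.81 in RE (adjusted p 1.53e-09 and 7.70e-08). Slc9a3r1, the scaffold NHERF1 that anchors phosphate transporters, fell by 0.43 in KO and 0.47 in RE (adjusted p 1.43e-08 and 1.85e-09), and its relative Slc9a3r2 fell by 0.31 in KO and 0.45 in RE (adjusted p 7.25e-05 and 1.21e-07). The list's median was -0.23 in KO and -0.24 in RE.

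Among 13 peptidases other than Mme, 7 were tested, and 1 rose and 1 fell in KO while 1 rose and 3 fell in RE, where 42.3% and 45.9% of all genes tested were called. Ece2, an endothelin-converting enzyme of the same family as neprilysin, rose by 0.19 in KO and 0.29 in RE (adjusted p 0.0302 and 0.00135). Anpep, aminopeptidase N, fell by 0.12 in KO and 0.20 in RE (adjusted p 0.0416 and 0.000982), the call in KO being lost without WT ZT0 liver 0. Enpep, glutamyl aminopeptidase, fell by 0.30 in RE (adjusted p 0.000940), and Ece1 by 0.14 (adjusted p 0.00358). The list's median was -0.05 in KO and -0.0044 in RE.

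Of 29 other Smim genes, 18 are in the table and 14 were tested, and 2 rose and 5 fell in KO while 4 rose and 3 fell in RE, close to the 42.3% and 45.9% of all genes tested that were called. They share a naming scheme, not a sequence family. Smim3 rose by 0.37 in KO and 0.20 in RE (adjusted p 1.23e-07 and 0.00159) and Smim19 by 0.34 in KO and 0.32 in RE (adjusted p 8.01e-05 and 0.000145). Smim6 fell by 0.32 in KO and 0.30 in RE (adjusted p 9.84e-05 and 0.000260) and Smim1 by 0.15 in KO and 0.16 in RE (adjusted p 0.00528 and 0.00406). Smim24 fell by 0.75 in KO and 0.70 in RE (adjusted p 0.000165 and 0.000362). It had 24.2 FPKM in WT ZT0 liver 0 and at most 2.12 FPKM in any other liver, and without that liver it fell by 0.58 in KO and 0.53 in RE (adjusted p 3.92e-07 and 1.96e-06). Smim4 was called in RE alone, at 0.23 (adjusted p 0.0161), and had 0.07 in KO (adjusted p 0.508).

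Of 12 trefoil and mucus genes in the table other than Tff3, 4 passed the filter on low values, and limma called 0 of them in either genotype, with 0 at an unadjusted p under 0.05. They were Tff1, Muc13, Fcgbp and Agr2, with means of at most 0.278 FPKM in KO, 0.203 FPKM in RE and 0.565 FPKM in WT. In WT ZT0 liver 0 Muc13 reached 9.16 FPKM and Agr2 5.27 FPKM, and the median of the other WT livers is listed at 0 for both. The other livers had at most 0.683 FPKM of Muc13 and 0.540 FPKM of Agr2, so both passed the filter only through WT ZT0 liver 0. Nothing about the family is therefore read from the absence of calls. Without that liver Muc13 was called lower in KO by -0.08 (limma, adjusted p 0.0417). WT ZT0 livers 1 and 2, which also held gut transcripts, stayed in that fit. Of 11 other Spink genes, Spink4 alone passed the filter, and it too was highest in WT ZT0 liver 0, at 25.7 FPKM. The other WT livers had at most 2.10 FPKM of Spink4. It averaged 0.0351 FPKM in KO, 0.114 FPKM in RE and 1.56 FPKM in WT, a difference that was not called (limma, adjusted p 0.161 in KO and 0.301 in RE). As the WT mean rests mostly on WT ZT0 liver 0, nothing about the Spink family is read from this.

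Markers of some other cells also moved between genotypes, while other marker lists held few calls or none. Of 10 stellate and fibroblast markers tested, 1 rose and 0 fell in KO, and 0 were called in RE. Of 4 mesothelium and 2 neutrophil markers tested, 0 were called in KO or RE. Of 7 endothelium markers tested, 1 rose and 1 fell in KO, and 1 rose and 2 fell in RE. Of all genes tested, 42.3% were called in KO and 45.9% in RE. The summed level of 10 bile duct markers had a median of 75.7 FPKM in KO (33.4 to 177), 69.3 FPKM in RE (25.9 to 154) and 32.3 FPKM in WT (23.8 to 136). Most of it is Spp1, which averaged 65.1 FPKM in KO, 72.0 FPKM in RE and 27.6 FPKM in WT, and without Spp1 the medians were 11.7 FPKM in KO, 10.9 FPKM in RE and 10.2 FPKM in WT. Of 7 tested, 2 rose in KO and 2 rose and 1 fell in RE, where 42.3% and 45.9% of all genes tested were called, and the list's median difference was -0.16 in KO and -0.12 in RE. The rises were those of Spp1 (1.23 in KO and 1.36 in RE) and Sox9 (0.47 in KO and 0.53 in RE). The fall in RE, that of Cldn7 by 0.36 (limma, adjusted p 0.0453), was lost without WT ZT0 liver 0 (adjusted p 0.0650). Krt19, the defining keratin of duct cells, was not called. It averaged 1.52 FPKM in KO, 1.48 FPKM in RE and 2.41 FPKM in WT, or 1.60 FPKM in the 17 WT livers other than WT ZT0 liver 0. Pancreas acinar markers, of interest for Spink1, summed to medians of 65.2 FPKM in KO, 74.1 FPKM in RE and 23.6 FPKM in WT, most of it Cela1. Without Cela1 the medians were 1.15 FPKM in KO, 1.08 FPKM in RE and 0.704 FPKM in WT, and of the 14 markers 3 were at 0 in all KO, 5 in all RE and 8 in all WT livers. Kupffer cell markers, those of the liver's resident macrophages, were lower: 4 of 7 fell in KO and 7 of 7 in RE, where 20.2% and 21.7% of all genes tested fell. Their median difference was -0.37 in KO and -0.64 in RE. They summed to medians of 86.4 FPKM in KO (50.2 to 174), 65.6 FPKM in RE (37.4 to 167) and 106 FPKM in WT (81.8 to 179). Of 3 lymphocyte markers tested, 0 were called in KO, with 1 at an unadjusted p under 0.05, and 3 fell in RE, where 21.7% of all genes tested fell. Of 12 gut markers tested, 7 fell in KO and 3 in RE, or 8 in KO and 7 in RE without WT ZT0 liver 0. Of all genes tested, 20.2% fell in KO and 21.7% in RE. Krt20, Alpi, Vil1, Phgr1 and Dmbt1 passed the filter on low values only through WT ZT0 liver 0, with at most 0.726 FPKM in any other liver. The filter thus favoured a fall against WT, and WT ZT0 livers 1 and 2 kept gut transcripts in the recount. Nothing is therefore read from the gut marker counts. The part of these markers in the levels of the 6 genes was not tested.

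Of 24 tested neighbours on the chromosomes, the nearest 2 on each side of each gene, 7 were higher and 5 lower in KO, and 8 higher and 4 lower in RE. That is close to the 42.3% and 45.9% of all genes tested that were called. Pyroxd2, 113.1 kb from Loxl4, rose by 1.01 in KO and 0.94 in RE (adjusted p 3.02e-16 and 2.63e-15). R3hcc1l, whose annotation ends beside that of Loxl4 (0.0 kb), rose by 0.15 in KO and 0.22 in RE (adjusted p 0.00992 and 0.000295). Rogdi, 0.4 kb from Smim22, fell by 0.94 in KO and 0.95 in RE (adjusted p 1.16e-11 and 9.12e-12). Beside Tff3, Abcg1 fell by 0.21 in KO and 0.34 in RE, Pde9a rose by 0.67 in both, and the related Tff1 was not called.

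The genes whose pattern was most like each of the 6 were found by Pearson r of log2(FPKM + 1), first over the 18 group means. Those means fall apart by genotype, so r mostly follows that split, and no test is given. Closest to Loxl4 were Npas2, a partner of BMAL1 (r 0.99), Grk5 (0.99) and Atp11a (0.98). Closest to Mme were Nat8 (0.99), Col27a1 (0.99) and Ugt1a10 (0.99). Spink1 lay closest to Zcwpw1 (0.96), Ankrd39 (0.96) and Loxl4 (0.95), and Slc34a2 to Ankrd39 (0.98), Gstm2 (0.96) and Col4a5 (0.96). Tff3 lay closest to Enho (0.95), Cdhr5 (0.95) and Cys1 (0.95), and Smim22 to Wfdc2 (0.98), Nat8 (0.97) and Gas6 (0.97).

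Over the 54 deviations of livers from their group means, which leave genotype and time out, the closest genes were others. They were Trim7 (r 0.75), Src (0.70) and Aldh1a1 (0.70) for Slc34a2, and Mtf1 (0.66), Hcfc1 (0.63) and Zbtb7b (0.62) for Loxl4. For Mme they were N6amt1 (0.57), Trmt6 (0.57) and Alg6 (0.52). For Smim22 they were Pabpn1 (0.63), Mup14 (0.59) and Ly96 (0.58), and Mup14 shares sequence with other Mup genes. Mup14 averaged 66.9 FPKM in KO, 4.01 FPKM in RE and 0 FPKM in WT, so its r rests on KO and RE livers. Without the 2 livers farthest from the median of Smim22, r was 0.55 for Pabpn1, 0.48 for Mup14 and 0.48 for Ly96. Spink1 followed Slc26a6 (0.67), Ccl25 (0.67) and Tmem141 (0.63). Without the 2 livers farthest from the median of Spink1, those values were 0.56, 0.51 and 0.60. Both Slc26a6 and Ccl25 were highest in WT ZT0 liver 0, at 2.59 and 14.8 FPKM, against at most 1.49 and 6.38 FPKM in any other liver.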

How the data were processed

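RNA of 54 livers (3 genotypes, 6 times, 3 livers per group) was analysed from the FPKM table that the authors deposited, with 1 value per gene symbol and liver. Reads were aligned with TopHat to mm10, per the submitters' processing notes. Not given in the sources used here are the TopHat version, the quantification tool, the strand setting and the annotation. Without counts in the table, library depth is unknown and counting error cannot be computed.

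FPKM were analysed as log2(FPKM + 1), a pseudocount of 1. Genes with a group mean of at least 1 FPKM were tested: 10932, the 6 genes among them, with 13414 left out, 5619 of which are 0 in every library. One limma model (limma 3.58.1, R 4.3.3, eBayes with trend) was fitted to 18 group means with 36 residual degrees of freedom. Level, 24 h rhythm (cosine and sine contrasts), rhythm differences and dependence on time were tested two-sided or by F test. A call is a Benjamini-Hochberg adjusted p under 0.05 over all genes tested. The code was tested on simulated data.

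The 6 genes, the gene lists and the tests were chosen with earlier results of these data known. Named by rule were the 6 genes, Arntl, up to 3 called genes per direction in each family list, the 10 largest other shifts, 3 most similar genes by each measure and 2 tested neighbours per side. Gene models were counted, not named. Columns of the table give genotype and time, and were tied to groups only. The sums without Fabp2, Cela1 or Spp1 and the list counts, bile duct values and spread without WT ZT0 liver 0 were added after seeing the data. Alternatives were another pseudocount (0.1), dropping the filter or raising it to 5 FPKM, 75th percentile scaling, the compared genotypes alone, no trend, robust eBayes and leaving out each liver. RefSeq matched all 6 genes. The genes closest to Tff3 over the deviations of single livers are not reported here.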

Additional observations from a re-analysis of the deposited data

Results flagged for a closer look

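For 2 of the 6 genes the effect of losing Bmal1 differed between times of day or between daily patterns by a direct test (limma, adjusted over 10932 genes). The 24 h pattern of Loxl4 differed between KO and WT by 0.90 (log2, adjusted p 8.43e-07) and between RE and KO by 0.55 (adjusted p 0.0166, but 0.0761 with those genotypes fitted alone), and the difference of KO from WT ranged over 2.03 between times (adjusted p 9.92e-06). KO livers had Loxl4 at 9.64 to 17.7 FPKM at all times, and the RE and WT group means were highest at ZT0 and lowest at ZT12.

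The 24 h pattern of Mme differed from WT by 0.62 in KO (adjusted p 3.61e-06) and by 0.57 in RE (adjusted p 2.22e-05). Its difference from WT ranged over 1.18 between times in KO (adjusted p 7.61e-05) and over 1.04 in RE (adjusted p 0.000433). The 4 results for Mme rest on WT livers at 4.41 to 14.2 FPKM set against KO and RE livers at 0.0276 to 0.686 FPKM, and all 4 calls were lost with a pseudocount of 0.1 (adjusted p 0.171 in KO and 0.380 in RE for the patterns, 0.336 in KO and 0.602 in RE for the ranges).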

How the results depend on the processing

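Each test of the 6 genes that the choice of genes did not use, 54 in all, was repeated under 7 other settings and without each of the 54 livers. Of 3294 repeats, 3267 left the outcome as it was, called or not called, 5 lost a call and 22 gained one. Most of the 54 tests were not called in the full fit, so most unchanged repeats stayed uncalled. A reversed call could not arise, because only level tests carry a sign and none of those among the 54 was called. The lost calls are the difference between the RE and KO patterns of Loxl4 with those genotypes fitted alone (adjusted p 0.0761) and the 4 Mme results with a pseudocount of 0.1 (adjusted p 0.171 to 0.602). Gained calls were those of Slc34a2, Loxl4, Tff3 and Spink1 given in the report. The cause was not tested.

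Numbers of genes called moved by more than 1.5 times in 46 of 671 repeats. Differences between the RE and KO patterns were 336 in the full fit, 191 without a filter and 2 with those genotypes alone. With the genotypes compared alone, time dependence of KO minus WT was 1056 against 633 in the full fit, levels of RE minus KO 0 against 21, KO rhythms 1 against 4 and RE rhythms 3107 against 5116. Without single livers the counts ranged from 13 to 172 for levels of RE minus KO, from 145 to 687 for differences between the RE and KO patterns, and from 0 to 161 for KO rhythms. The background shares of those 3 comparisons are therefore unsteady. Scaling to the 75th percentile left the median difference of all genes at 0.00 in KO and 0.01 in RE.

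No paired analysis was possible because the column numbers (0 to 2) are not the replicate numbers of the titles (1 to 3), so columns are tied to their group only. With no counts, precision rests on the spread of 3 livers per group, and low values such as Slc34a2 in WT or Mme in KO and RE have an unknown counting error.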

Other observations

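Outside the 6 genes, the largest shifts of one sign in both genotypes, with a group mean of at least 5 FPKM, included rises and falls. Sult1e1, the estrogen sulfotransferase, was higher by 4.40 in KO and 4.72 in RE (log2(FPKM + 1)), Lpl, lipoprotein lipase, by 4.21 in KO and 4.04 in RE, and the cytochromes P450 Cyp2b10 by 3.82 in KO and 4.02 in RE and Cyp2c55 by 3.89 in KO and 3.56 in RE. Grk5, a kinase of G protein-coupled receptors, was higher by 2.98 in KO and 2.89 in RE. Lower were the N-acetyltransferase Nat8, by -5.08 in KO and -5.09 in RE, and its relative Cml5, by -3.25 in KO and -2.92 in RE. These genes were selected for these values, which are given without a test. Another 2 among the 10 largest are gene models, and Alb, also among them, is listed at 0 in 21 libraries, so no fold is given. Sequence similarity within the Cyp2b, Cyp2c and Nat8 families leaves the division of reads among their members uncertain.

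Nat8 is also among the genes most like Mme and Smim22 over the group means, and its WT level was 64.7 FPKM in ZT0 liver 0 and had a median of 49.6 FPKM over the other 17 WT livers.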
